A study of Mus musculus with 12 samples.

Results

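The 10 genes described here encode the core of 3 kinds of chromatin complex: Ezh2, Ezh1, Eed and Suz12 of Polycomb repressive complex 2 (PRC2), Smarca4, Smarca2, Arid1a and Arid1b of the SWI/SNF remodellers, and the acetyltransferases Ep300 (p300) and Crebbp (CBP). Chromatin accessibility at these genes was read from an ATAC-seq count table of 48443 peaks in the mouse build mm10. A peak was assigned to a gene when that gene was the nearest protein-coding gene model within 100 kb. The rule gave 84 of the 48443 peaks. Arid1b, the longest of the gene models, held 28 of them, Eed and Smarca2 held 12 each, Arid1a 8, Ezh2 7, Smarca4 6, Ezh1 4, Ep300 4, Crebbp 2 and Suz12 1. Of the 84 peaks, 10 lay at an end of their gene model, 53 inside the model and 21 outside. No peak was equally near to another protein-coding model. Nearness to a gene does not show that a region acts on it.

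Naive CD4+ T cells from the spleens of wild-type C57BL/6 mice were activated with antibodies to CD3 and CD28, each at 1 µg/ml. Non-pathogenic Th17 cells (Th17n), a helper lineage that makes IL-17, were made with IL-6 at 25 ng/ml together with TGF-beta1 at 2 ng/ml. Induced regulatory T cells (iTreg), a suppressive lineage, received TGF-beta1 at 2 ng/ml without IL-6. Each lineage was cultured for 68 hours with 100 µM DFMO or with vehicle. DFMO, difluoromethylornithine, inhibits ornithine decarboxylase, the enzyme that makes the polyamine putrescine. The 4 groups were Th17n vehicle, Th17n DFMO, iTreg vehicle and iTreg DFMO, and each of 3 animals gave 1 library to each group. All 12 libraries came from live-sorted cells that were frozen and thawed before tagmentation. The cells were differentiated in vitro, so the groups stand for cultures and not for cells taken from tissue. The labels give neither the age nor the sex of the animals.

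PRC2 places methyl groups on lysine 27 of histone H3, a mark of silenced genes. Ezh2 and Ezh1 are its alternative catalytic subunits, Eed binds the methyl mark and Suz12 holds the core together. SWI/SNF complexes use ATP to slide or evict nucleosomes: Smarca4 (BRG1) and Smarca2 (BRM) are alternative motors, and Arid1a and Arid1b are alternative DNA-binding subunits of the BAF form. p300 and CBP acetylate histones at enhancers and promoters and bind many transcription factors. In helper T cells, Ezh2 is known for restraining cytokine genes of other lineages and for keeping activated regulatory T cells stable, and p300 is known to acetylate the regulatory T cell factor Foxp3.

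Accessibility is given as CPM, the count of the peak scaled to the total count of its library, for animals 1, 2 and 3 in that order. A peak is named by its gene and by the distance of its middle from the nearest listed transcription start, positive in the direction of transcription. The strongest peak within 1 kb of a listed start is called the start peak. Peak starts are printed as the table has them, and whether they count from 0 or 1 is not given. Differences are log2 estimates of edgeR's quasi-likelihood test over all 12 libraries, with a standard error (SE). The Benjamini-Hochberg adjusted p covers 43726 tested peaks and has a threshold of 0.05. Of the 84 peaks, 81 passed the filter on low counts, and the 3 that did not reached at most 7.81 CPM in any library.

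Promoter sequences of 4 of the genes are shown because their start peaks carry the results at starts: Ezh2 had the start peak that differed most between the lineages, Suz12 and the upstream start of Arid1a were higher with DFMO in Th17n, and Ezh1 had the lowest start peak of the 10. All 10 genes matched the RefSeq promoter table (assembly GRCm38.p6, whose chromosomes are those of mm10), which lists 11 starts for them. Each sequence runs 5′ to 3′ along the gene's strand from 250 bases before to 50 bases after the listed start. Capitals mark matches, on either strand, to the motifs TGANTCA (AP-1), TTCNNNGAA (STAT), CCGGAA (ETS), TGTGGT (RUNX), TGACGTCA (CRE), TTTNGCGC (E2F), CCAAT (NFY), CACGTG (E-box) and GGGCGG (GC box), none of which contains another.
Ezh2, chr6:47594981-47595280, minus strand: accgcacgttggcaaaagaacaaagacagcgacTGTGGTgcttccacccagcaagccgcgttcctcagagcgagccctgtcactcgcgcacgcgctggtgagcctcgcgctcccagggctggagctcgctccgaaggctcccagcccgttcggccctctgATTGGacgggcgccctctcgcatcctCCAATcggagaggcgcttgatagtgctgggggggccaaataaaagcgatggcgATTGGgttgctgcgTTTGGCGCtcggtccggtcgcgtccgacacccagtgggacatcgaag
Suz12, chr11:79992856-79993155, plus strand: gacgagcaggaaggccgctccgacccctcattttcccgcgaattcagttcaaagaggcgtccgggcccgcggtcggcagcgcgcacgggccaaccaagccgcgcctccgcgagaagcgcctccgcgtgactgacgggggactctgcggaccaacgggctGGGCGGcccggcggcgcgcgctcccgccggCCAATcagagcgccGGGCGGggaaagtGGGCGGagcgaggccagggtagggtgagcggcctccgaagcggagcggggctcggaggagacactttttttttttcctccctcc
Arid1a upstream start, chr4:133756720-133757019, minus strand: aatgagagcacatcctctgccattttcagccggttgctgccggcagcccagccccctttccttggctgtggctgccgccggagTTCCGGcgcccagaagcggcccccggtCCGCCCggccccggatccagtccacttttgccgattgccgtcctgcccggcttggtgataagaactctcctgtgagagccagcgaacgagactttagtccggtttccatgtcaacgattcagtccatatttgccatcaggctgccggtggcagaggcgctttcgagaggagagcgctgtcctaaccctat
Ezh1, chr11:101226414-101226713, minus strand: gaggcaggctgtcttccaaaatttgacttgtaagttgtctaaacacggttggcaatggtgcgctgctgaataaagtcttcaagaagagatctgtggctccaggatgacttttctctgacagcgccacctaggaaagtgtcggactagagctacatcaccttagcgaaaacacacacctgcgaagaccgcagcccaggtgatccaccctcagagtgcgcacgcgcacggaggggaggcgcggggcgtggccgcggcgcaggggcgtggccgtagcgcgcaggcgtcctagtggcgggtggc
With position 1 at the start, the first base of the E2F match in Ezh2 lay at 4, its NFY matches at -90, -64 and -11, and its RUNX match at -217. An E2F match was found in 1.38% of the 32851 promoters in the table, an NFY match in 37.41% and a RUNX match in 16.76%. Suz12 had GC boxes at -91, -47 and -34 and an NFY match at -61. A GC box was present in 8 of the 11 promoters of these genes and in 35.66% of all promoters. The GC content of all promoters had a median of 52.7%, and that of these 11 ran from 54.7% at Eed to 82.0% at Crebbp. The upstream Arid1a start had an ETS match at -167, where 14.9% of promoters hold one, and a GC box at -140. Ezh1 had no match to any of the 9 motifs. Of the promoters not printed, Smarca2 had an AP-1 match at 29, which 7.81% of promoters share. No CRE, E-box or STAT match was found in these 11 windows. A match describes letters in the window and is not a measured binding site.

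The libraries held 1020937 to 6496550 counts in peaks, a ratio of 6.36, and within a group their log2 profiles correlated at 0.8828 to 0.9602. Peaks of the Th17 genes Il17a, Il17f and Il23r summed to between 352.3 and 405.5 CPM in the Th17n vehicle libraries and between 84.0 and 117.1 CPM in the iTreg vehicle libraries. Peaks of the regulatory genes Foxp3, Ikzf2, Il2ra and Ctla4 did not separate the lineages in the labelled direction: their sum was higher in Th17n, at 1022.6 to 1112.1 CPM in Th17n vehicle and 937.0 to 1015.2 CPM in iTreg vehicle. With DFMO the Th17 sum was lower in Th17n, at 236.4 to 316.7 CPM, without overlap with vehicle. The regulatory sum was also lower with DFMO without overlap, at 896.5 to 948.1 CPM in Th17n and 747.2 to 921.9 CPM in iTreg. No peak was assigned to Cd79a, Cd79b, Ms4a1, Cd8a, Ncr1 or Nkg7, markers of B cells, CD8 T cells and NK cells. Of the other B cell markers, Pax5 and Ebf1, the summed peaks were higher in Th17n vehicle (213.8 to 255.5 CPM) than in iTreg vehicle (120.7 to 166.2 CPM). Peaks of the 6 myeloid genes summed to 91.1 to 113.6 CPM in Th17n vehicle and 69.2 to 90.5 CPM in iTreg vehicle, which did not overlap. Those of 5 T cell genes were also higher in Th17n, without overlap in either treatment. They summed to 506.4 to 547.4 CPM in Th17n vehicle and 471.4 to 500.4 CPM in iTreg vehicle. Under DFMO the T cell sums were 488.1 to 560.0 CPM in Th17n and 459.2 to 483.5 CPM in iTreg. Peaks of the cytotoxic genes Cd8b1, Klrb1c and Klrk1 summed to 106.7 to 124.9 CPM in iTreg vehicle and 136.9 to 146.7 CPM in iTreg DFMO, also without overlap, and to 95.1 to 134.6 CPM in Th17n. The part of any of these in the results was not tested. The share of all counts that fell within 1 kb of a listed start moved with lineage: 39.93% ± 0.467 (SD, n = 3) in Th17n vehicle, 41.85% ± 0.817 in Th17n DFMO, 48.19% ± 1.042 in iTreg vehicle and 49.43% ± 0.916 in iTreg DFMO.

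Every one of the 10 genes had counts at its start peak in every library. The promoter window of the listed Arid1b start overlapped no peak, and the Arid1b start peak has its middle 1.0 kb past that start. Compared per kilobase of peak and averaged over the 12 libraries, Smarca2 had the most accessible start, at 109 CPM per kb, and Ezh1 the least, at 28.7 CPM per kb. Between them came Ezh2 at 70.4, Smarca4 at 70.0, Ep300 at 63.0, Eed at 55.4, Arid1a at 53.8, Suz12 at 53.6, Crebbp at 36.7 and Arid1b at 33.7 CPM per kb. No neighbours in this order were separated beyond the spread of the 12 libraries. Smarca2, whose lowest library had 81.6 CPM per kb, lay above every library of Ep300 and of the 6 genes ranked below it. The order takes 1 start peak per gene. The separation does not extend to the second start peak of Arid1a, at -0.4 kb, which had a mean of 101 CPM per kb. The alternative catalytic subunits of PRC2 did not overlap at their starts: Ezh2 ran from 44.5 to 95.4 CPM per kb over the libraries and Ezh1 from 18.8 to 37.5 CPM per kb. The 12 peaks within 1 kb of a start had a median width of 1416 bp and a median level of 85.2 CPM, against 429.5 bp and 8.3 CPM for the other peaks. This order describes peak levels and is no measure of transcription.

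**Figure D1:**
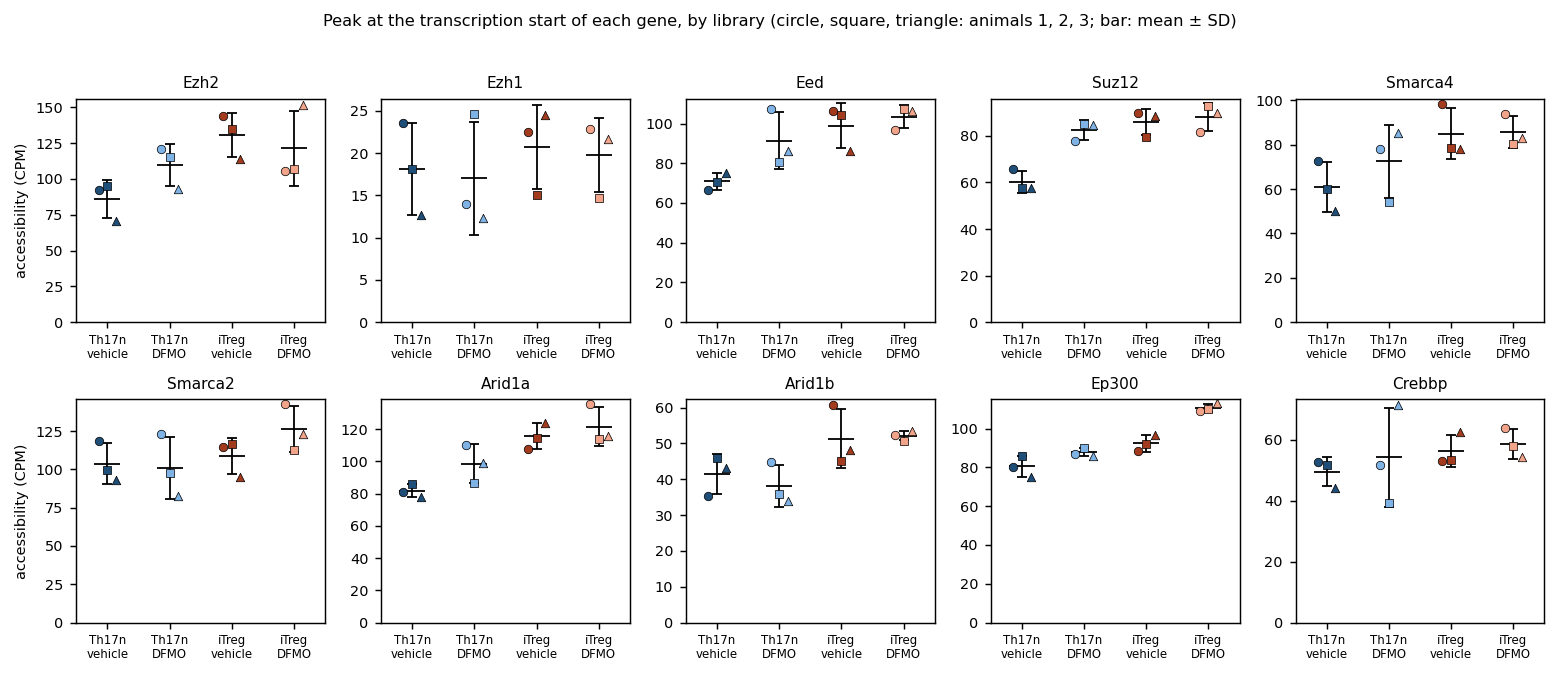
Accessibility (CPM, linear axis from 0) of the start peak of each of the 10 genes in Th17n vehicle, Th17n DFMO, iTreg vehicle and iTreg DFMO. Circle, square and triangle are animals 1, 2 and 3, and bars are mean ± SD (n = 3). At Suz12 the Th17n vehicle libraries (57.6 to 65.6 CPM) lie below all of the other 9 libraries.

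The lineage comparison asks where Th17n and iTreg chromatin differ. In vehicle, 26 of the 81 tested peaks were higher in Th17n and 19 were lower, together 55.6%, against 44.6% of all 43726 tested peaks (25.2% higher and 19.3% lower). Under DFMO, 24 were higher in Th17n and 11 lower, together 43.2%, against 37.2% of all peaks (22.5% higher and 14.7% lower). The same direction was called in both treatments at 25 peaks, of which 19 were higher in Th17n and 6 lower, where 26.5% of all tested peaks were (17.5% higher and 8.95% lower). All 12 peaks at starts had negative differences, toward iTreg, in both treatments, but with scaling factors taken from start peaks alone, 5 of them turned positive in vehicle and 6 under DFMO, and after thinning to the smallest library total 3 did in vehicle. Of the 12, 6 were called lower in Th17n in vehicle and 4 under DFMO. Of the 9576 tested start peaks of all genes, 34.4% were called lower in Th17n in vehicle and 27.1% under DFMO. The median difference of the 12 was -0.38 in vehicle and -0.29 under DFMO, beside -0.34 and -0.29 over all start peaks. Of the 69 other peaks, 26 were higher and 13 lower in vehicle, where 31.7% and 15.1% of all other peaks were, with a median of 0.46 beside 0.15 over all such peaks. Calls of at least 4-fold away from starts numbered 10 in vehicle, 8 of them higher in Th17n, and 12 under DFMO, 11 of them higher in Th17n. Of all tested peaks away from starts, 17.9% were called so in vehicle (15% higher and 2.86% lower) and 14.8% under DFMO (13.1% higher and 1.75% lower).

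The lower start peaks in Th17n went with the lower share of counts at starts in those libraries, and the part of that share in the result was not tested. With scaling factors taken from start peaks only, an alternative chosen after seeing the data, the median difference of all peaks moved from -0.07 to 0.26 in vehicle and from -0.01 to 0.28 under DFMO. The peaks called lower in Th17n then fell from 19 to 6 and from 11 to 3, and of the calls at starts 1 of 6 passed in vehicle, at Ezh2, and 0 of 4 under DFMO. Among all called peaks the share called higher in Th17n moved from 56.6% to 82.2% in vehicle and from 60.5% to 84.9% under DFMO. Leaving out any 1 of the Th17n vehicle libraries of animals 1, 2 and 3 lowered the count of 19 to 12, 11 and 12, and leaving out Th17n DFMO animal 2 lowered the count of 11 to 3. Thinned to the smallest library total, 1 of the 6 calls at starts passed in vehicle, at Ezh2, and 1 of 4 under DFMO, at Arid1b. With library totals as the scaling, all 6 passed in vehicle and 1 of 4 under DFMO, at Ep300.

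**Figure D2:**
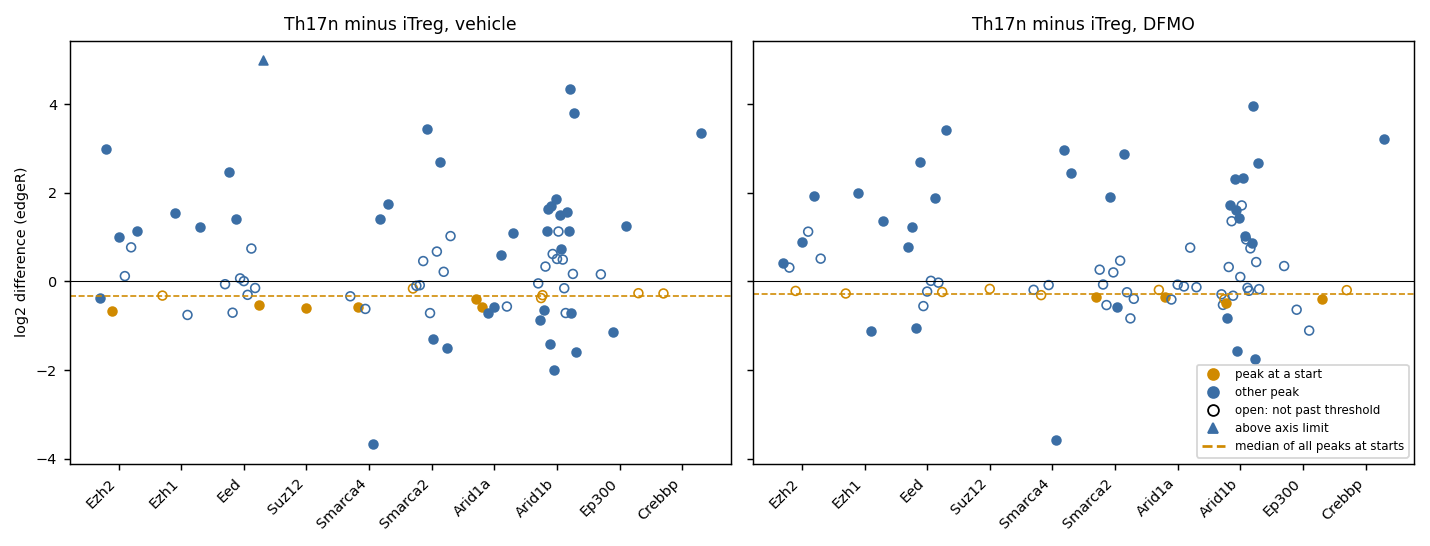
Each point is 1 of the 81 tested peaks; the vertical axis is the edgeR log2 difference, Th17n minus iTreg, in vehicle (left) and under DFMO (right), and the horizontal axis is the gene, with its peaks spread sideways. Filled points passed the threshold, the dashed line is the median of all 9576 start peaks, and 1 Eed peak with 0 counts in every iTreg vehicle library is drawn as a triangle at the limit of the axis. All start peaks lie below 0 under the scaling shown, while most filled points of the other peaks lie above it. Under factors from start peaks, 5 start peaks in vehicle and 6 under DFMO would lie above 0.

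The DFMO comparison asks where accessibility differs between DFMO and vehicle within a lineage. In Th17n, 5 of the 81 peaks rose with DFMO and 3 fell, together 9.88%, close to the 8.78% of all tested peaks (4.5% higher and 4.28% lower). In iTreg, 4 rose and 1 fell, together 6.17%, beside 8.56% of all peaks (3.84% higher and 4.72% lower). The 8 peaks called in Th17n and the 5 called in iTreg were 13 different peaks, and of all tested peaks 1.8% were called in both lineages. Thinned to the smallest library total, 2 of the 10 of these calls that could be tested passed, Ezh2 +62.3 kb and Smarca4 +36.1 kb. At the 12 start peaks, 2 rose in Th17n, where 4.39% of all start peaks did, and in iTreg the smallest adjusted p was 0.152, at Ep300, the 1 start peak with an unadjusted p under 0.05. Among the 12, 11 had positive differences with DFMO in Th17n (9 with factors from start peaks), with a median of 0.28 beside 0.08 over all start peaks, and 10 were positive in iTreg, with a median of 0.07 beside 0.04. The share of counts at starts was also higher in Th17n DFMO (41.85%) than in Th17n vehicle (39.93%), and its part in these values was not tested. With factors from start peaks, 3 of the 81 peaks rose with DFMO in Th17n and 4 fell. The counts depended on single libraries: without Th17n vehicle animals 1, 2 and 3 the 5 that rose became 2, 1 and 0, without Th17n DFMO animals 1, 2 and 3 they became 1, 0 and 0, and without iTreg DFMO animal 1 or 3 they became 3. The 3 that fell in Th17n became 1 without Th17n vehicle animal 3 or Th17n DFMO animal 1 or 2. In iTreg the 4 that rose became 2 without iTreg vehicle animal 2 or iTreg DFMO animal 1 and 0 without animal 3 of either iTreg group. The single peak that fell in iTreg became 3 without iTreg vehicle animal 1 and 6 without iTreg DFMO animal 2, and the 9 libraries without which it was lost are named in the account of Arid1a.

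**Figure D3:**
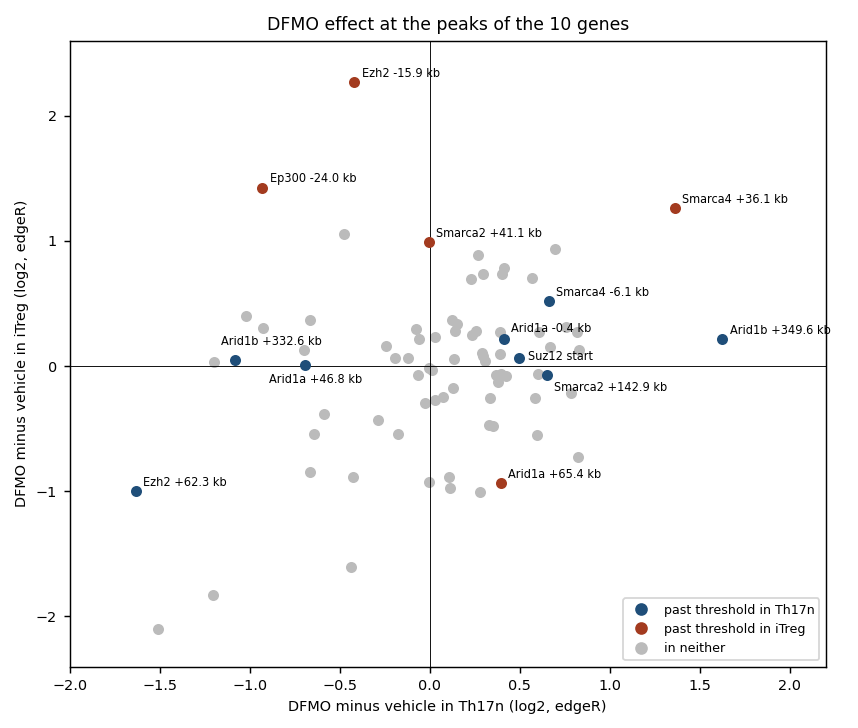
Each point is 1 tested peak of the 10 genes; the axes are the edgeR log2 difference, DFMO minus vehicle, in Th17n (horizontal) and in iTreg (vertical). Blue points passed the threshold in Th17n, red points in iTreg and grey points in neither, and 1 Eed peak with 0 counts in every iTreg vehicle library is not drawn. Ep300 -24.0 kb and Ezh2 -15.9 kb lie in the upper left, with negative differences in Th17n and positive ones in iTreg.

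Ezh2, the PRC2 methyltransferase of dividing cells, was less accessible at its start in Th17n than in iTreg in vehicle, and lost accessibility with DFMO at a site near the 3′ end of the gene. The start peak (chr6:47594099-47595691, 1592 bp) also overlapped the long noncoding gene F830010H11Rik. Its accessibility was 92.1, 94.8 and 70.8 CPM in Th17n vehicle, 121, 116 and 93.1 CPM in Th17n DFMO, 144, 135 and 114 CPM in iTreg vehicle and 106, 107 and 152 CPM in iTreg DFMO. All 3 Th17n vehicle libraries lay below all 3 iTreg vehicle libraries, and under DFMO the lineages overlapped. The log2 difference between lineages was -0.67 ± 0.14 (SE, adjusted p = 0.0001) in vehicle and -0.21 ± 0.14 (SE, adjusted p = 0.236) under DFMO. Among the called start peaks of the 10 genes in vehicle, this was the one that passed with factors from start peaks (-0.34, adjusted p = 0.042).

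At the Ezh2 +62.3 kb peak, accessibility was 25.5, 23.4 and 38.5 CPM in Th17n vehicle, 10.4, 9.09 and 7.81 CPM in Th17n DFMO, 16.4, 10.5 and 11.9 CPM in iTreg vehicle and 7.04, 9.02 and 3.52 CPM in iTreg DFMO. This peak (chr6:47532489-47532989, 500 bp) lies inside the Ezh2 model, and the next protein-coding gene, Cul1, is 6.3 kb away. Th17n vehicle stood above all other groups, and in both lineages every DFMO library lay below every vehicle library. The DFMO difference was -1.63 ± 0.32 (SE, adjusted p = 0.000548) in Th17n and -1.0 ± 0.35 (SE, adjusted p = 0.0653) in iTreg. It was the largest fall with DFMO called in Th17n among the 81 peaks, and the only one of the 13 DFMO calls that passed without each of the 12 libraries in turn. The effects of the lineages did not pass the test of their difference (-0.64 ± 0.48 SE, adjusted p = 0.604). In vehicle the peak was higher in Th17n than in iTreg (1.15 ± 0.29 SE, adjusted p = 0.00114).

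At the Ezh2 -15.9 kb peak, accessibility was 5.88, 8.47 and 8.81 CPM in Th17n vehicle, 4.55, 4.33 and 9.77 CPM in Th17n DFMO, 0, 1.29 and 1.01 CPM in iTreg vehicle and 5.28, 3.32 and 4.98 CPM in iTreg DFMO. This upstream peak (chr6:47610771-47611144) rested on few reads in iTreg vehicle, with 0, 6 and 5 counts in the 3 libraries. It rose with DFMO in iTreg by 2.27 ± 0.61 (SE, adjusted p = 0.013). In Th17n the DFMO and vehicle libraries overlapped (-0.42 ± 0.47 SE, adjusted p = 0.65). The lineages were apart in vehicle (3.0 ± 0.56 SE, adjusted p = 2.18e-05) and overlapped under DFMO (0.31 ± 0.51 SE, adjusted p = 0.665). The rise at Ezh2 -15.9 kb was lost without any 1 of iTreg vehicle animal 3 (0.055) or iTreg DFMO animal 3 (0.076), with the adjusted p in brackets. A second upstream peak, 26.2 kb before the start, had group means of 56.0 and 70.1 CPM in Th17n vehicle and DFMO and 70.8 and 50.8 CPM in iTreg vehicle and DFMO. Its lineage difference was called in both treatments with opposite signs, -0.38 ± 0.16 (SE, adjusted p = 0.0464) in vehicle and 0.42 ± 0.17 (SE, adjusted p = 0.0478) under DFMO. This peak was singled out after its values were seen.

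At the Ezh2 +35.0 kb peak, accessibility was 1.96, 6.62 and 6.75 CPM in Th17n vehicle, 5.52, 4.33 and 1.95 CPM in Th17n DFMO, 3.07, 3.22 and 3.23 CPM in iTreg vehicle and 1.76, 1.42 and 0.293 CPM in iTreg DFMO. It held 1 to 3 counts per iTreg DFMO library. Under DFMO the Th17n libraries at this small peak (chr6:47559926-47560211) lay above those of iTreg, from 1.95 CPM upward against 1.76 CPM downward. The difference under DFMO was 1.94 ± 0.70 (SE, adjusted p = 0.0263), the smallest p of the Ezh2 peaks in that comparison. This Ezh2 +35.0 kb call was lost without any 1 of Th17n DFMO animal 1 (0.14), Th17n DFMO animal 2 (0.059) or iTreg DFMO animal 3 (0.2), with the adjusted p in brackets.

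Ezh1, the alternative catalytic subunit that is prominent in resting cells, had the lowest start peak of the 10 genes and no called difference there. Accessibility at its start peak (chr11:101226008-101226666) was 23.5, 18.2 and 12.6 CPM in Th17n vehicle, 14, 24.7 and 12.4 CPM in Th17n DFMO, 22.5, 15.1 and 24.5 CPM in iTreg vehicle and 22.9, 14.7 and 21.7 CPM in iTreg DFMO. The groups overlapped in all 4 comparisons, and the lineage difference was -0.32 ± 0.28 (SE, adjusted p = 0.373) in vehicle. At the Ezh1 +31.6 kb peak, accessibility was 37.2, 30.6 and 34.9 CPM in Th17n vehicle, 29.6, 24.2 and 27.4 CPM in Th17n DFMO, 13.8, 11.4 and 16.0 CPM in iTreg vehicle and 8.22, 11.4 and 10.3 CPM in iTreg DFMO. At this peak inside the gene (chr11:101194469-101195227), with Cntnap1 3.7 kb away, every Th17n library lay above every iTreg library. Th17n exceeded iTreg by 1.23 ± 0.24 (SE, adjusted p = 5.88e-05) in vehicle and by 1.36 ± 0.27 (SE, adjusted p = 9.85e-05) under DFMO. Both calls held in every alternative setting tried and without each library in turn. With DFMO the smallest unadjusted p of its 4 peaks in either lineage was 0.0528, at +25.2 kb in iTreg.

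Eed, the PRC2 subunit that reads the methyl mark, was lower at its start in Th17n vehicle and had upstream peaks that were higher in Th17n. Accessibility of its start peak (chr7:89980074-89981720) was 66.6, 70.7 and 75.2 CPM in Th17n vehicle, 108, 80.5 and 86.0 CPM in Th17n DFMO, 106, 104 and 86.1 CPM in iTreg vehicle and 96.8, 107 and 106 CPM in iTreg DFMO. Th17n vehicle lay below every library of the other 3 groups. The lineage difference was -0.53 ± 0.13 (SE, adjusted p = 0.00105) in vehicle and -0.24 ± 0.14 (SE, adjusted p = 0.165) under DFMO, and with DFMO in Th17n the peak differed by 0.39 ± 0.14 (SE, adjusted p = 0.0644). The Eed start call was lost with factors from start peaks (-0.20, adjusted p = 0.25). Of the 12 Eed peaks 10 lay outside the gene, 17.3 to 74.1 kb before the start.

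At the Eed -58.6 kb peak, accessibility was 46.0, 36.0 and 29.4 CPM in Th17n vehicle, 48.1, 37.2 and 43.0 CPM in Th17n DFMO, 6.14, 14.6 and 15.2 CPM in iTreg vehicle and 1.17, 9.02 and 7.33 CPM in iTreg DFMO. At the Eed -61.6 kb peak, accessibility was 30.4, 21.2 and 23.5 CPM in Th17n vehicle, 9.42, 10.8 and 18.9 CPM in Th17n DFMO, 1.53, 4.08 and 5.66 CPM in iTreg vehicle and 4.70, 4.27 and 5.86 CPM in iTreg DFMO. Both peaks (chr7:90039226-90039992 and chr7:90042430-90042698) overlap the long noncoding gene E230029C05Rik, and the next protein-coding gene, Picalm, is 90.2 and 87.5 kb away. At both, every Th17n library lay above every iTreg library of the same treatment. Th17n exceeded iTreg at -58.6 kb by 1.42 ± 0.28 (SE, adjusted p = 4.43e-05) in vehicle and 2.71 ± 0.33 (SE, adjusted p = 5.63e-09) under DFMO. At -61.6 kb the differences were 2.47 ± 0.35 (SE, adjusted p = 1.5e-07) and 1.24 ± 0.39 (SE, adjusted p = 0.0108). The Eed -61.6 kb call under DFMO was lost without Th17n DFMO animal 3 (adjusted p = 0.099). The DFMO difference in Th17n was 0.28 at -58.6 kb and -0.92 at -61.6 kb, and neither passed the threshold (adjusted p = 0.571 and 0.0685). Between them, at -60.8 kb, a peak singled out after its values were seen was lower in Th17n under DFMO (-1.04 ± 0.39 SE, adjusted p = 0.0328). The strongest distal peak of Eed, 26.4 kb before the start, had group means of 91.0 to 106 CPM and passed in no comparison.

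Suz12, the scaffold of PRC2, had a single peak, at its start, and that peak was lower in Th17n vehicle than elsewhere and rose with DFMO in Th17n. Accessibility of this peak (chr11:79992482-79993961) was 65.6, 57.6 and 57.5 CPM in Th17n vehicle, 77.7, 85.2 and 84.7 CPM in Th17n DFMO, 90.0, 79.8 and 88.5 CPM in iTreg vehicle and 81.6, 93.0 and 89.7 CPM in iTreg DFMO. Th17n vehicle lay below all other 9 libraries, and with DFMO the Th17n libraries reached the range of iTreg. The DFMO difference was 0.50 ± 0.14 (SE, adjusted p = 0.0162) in Th17n and 0.06 ± 0.13 (SE, adjusted p = 0.828) in iTreg, and the interaction did not pass (0.43 ± 0.19 SE, adjusted p = 0.27). The lineage difference was -0.60 ± 0.13 (SE, adjusted p = 0.000231) in vehicle and -0.17 ± 0.13 (SE, adjusted p = 0.338) under DFMO. The DFMO call at Suz12 was lost without any 1 of Th17n vehicle animal 2 (0.12), Th17n vehicle animal 3 (0.13), Th17n DFMO animal 1 (0.068), Th17n DFMO animal 2 (0.11) or Th17n DFMO animal 3 (0.079), with the adjusted p in brackets. With factors from start peaks the DFMO call held (0.42, adjusted p = 0.045) and the lineage call did not (-0.27, adjusted p = 0.1). Thinned to the smallest library total, the DFMO call was lost (0.26, adjusted p = 0.42).

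Smarca4, the BRG1 motor, had the peak with the largest difference toward iTreg, which rose with DFMO in iTreg. At the Smarca4 +36.1 kb peak, accessibility was 2.94, 0.924 and 1.47 CPM in Th17n vehicle, 3.57, 4.33 and 1.95 CPM in Th17n DFMO, 26.6, 16.6 and 9.70 CPM in iTreg vehicle and 45.2, 25.6 and 47.5 CPM in iTreg DFMO. The peak (chr9:21651988-21652583, 595 bp) lies inside the gene, and every iTreg library lay above every Th17n library. The lineage difference was -3.68 ± 0.45 (SE, adjusted p = 3.83e-09) in vehicle and -3.58 ± 0.38 (SE, adjusted p = 2.95e-10) under DFMO. With DFMO the difference was 1.26 ± 0.30 (SE, adjusted p = 0.00455) in iTreg and 1.36 ± 0.58 (SE, adjusted p = 0.136) in Th17n, where counts were 3 to 11 per library. The vehicle and DFMO libraries overlapped in iTreg, since vehicle animal 1 (26.6 CPM) exceeded DFMO animal 2 (25.6 CPM). The DFMO call at Smarca4 +36.1 kb was lost without any 1 of iTreg vehicle animal 3 (0.087) or iTreg DFMO animal 3 (0.078), with the adjusted p in brackets.

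At the Smarca4 -6.1 kb peak, accessibility was 20.6, 32.9 and 29.4 CPM in Th17n vehicle, 46.8, 45.4 and 44.3 CPM in Th17n DFMO, 35.3, 36.5 and 33.8 CPM in iTreg vehicle and 51.6, 53.1 and 45.1 CPM in iTreg DFMO. At this upstream peak (chr9:21609818-21610332) every DFMO library lay above every vehicle library in both lineages. DFMO raised it in Th17n (0.66 ± 0.19 SE, adjusted p = 0.0195), and the iTreg difference was 0.52 ± 0.18 (SE, adjusted p = 0.0637). The interaction was 0.15 ± 0.26 (SE, adjusted p = 0.859). The Smarca4 -6.1 kb call in Th17n was lost without any 1 of Th17n vehicle animal 1 (0.11), Th17n vehicle animal 3 (0.11), Th17n DFMO animal 1 (0.12), Th17n DFMO animal 2 (0.077) or Th17n DFMO animal 3 (0.059), with the adjusted p in brackets. Accessibility at the Smarca4 start peak (chr9:21615668-21616754) was 72.5, 60.0 and 50.2 CPM in Th17n vehicle, 78.0, 54.1 and 85.3 CPM in Th17n DFMO, 98.2, 78.5 and 78.0 CPM in iTreg vehicle and 93.9, 80.2 and 82.9 CPM in iTreg DFMO. Its lineage difference was -0.57 ± 0.15 (SE, adjusted p = 0.00182) in vehicle and -0.31 ± 0.15 (SE, adjusted p = 0.111) under DFMO, and the call was lost without Th17n vehicle animal 3 (adjusted p = 0.064). The Smarca4 start call was also lost with factors from start peaks (-0.24, adjusted p = 0.21). Further inside the gene, at +63.8 and +70.7 kb, Smarca4 had peaks, picked out after their values were seen, that were higher in Th17n, by 1.41 and 1.75 in vehicle (adjusted p = 0.000284 and 0.0202). Summed over its 6 peaks, Smarca4 had 117 ± 7.9 CPM in Th17n vehicle, 171 ± 13.7 in Th17n DFMO, 150.1 ± 17.6 in iTreg vehicle and 186 ± 15.3 in iTreg DFMO (SD, n = 3).

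Smarca2, the BRM motor, had the most accessible start per kilobase and peaks inside the gene with lineage differences in both directions. Accessibility of the start peak (chr19:26604626-26605639), which overlaps the long noncoding gene Gm52395, was 118, 99.6 and 93.1 CPM in Th17n vehicle, 123, 97.4 and 82.7 CPM in Th17n DFMO, 115, 117 and 95.0 CPM in iTreg vehicle and 142.6, 113 and 123 CPM in iTreg DFMO. The groups overlapped in every comparison. The lineage difference was -0.16 ± 0.13 (SE, adjusted p = 0.344) in vehicle and -0.36 ± 0.14 (SE, adjusted p = 0.0304) under DFMO, a call lost in 6 of 9 settings, among them DESeq2 (adjusted p = 0.052) and factors from start peaks (-0.08, adjusted p = 0.71). The Smarca2 start call was lost without any 1 of Th17n DFMO animal 2 (0.1), Th17n DFMO animal 3 (0.13) or iTreg DFMO animal 1 (0.08), with the adjusted p in brackets.

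At the Smarca2 +48.9 kb peak, accessibility was 10.8, 10.9 and 11.4 CPM in Th17n vehicle, 8.45, 3.89 and 11.7 CPM in Th17n DFMO, 0.511, 0.430 and 1.62 CPM in iTreg vehicle and 2.35, 1.90 and 1.76 CPM in iTreg DFMO. At the Smarca2 +158.2 kb peak, accessibility was 14.7, 10.2 and 7.34 CPM in Th17n vehicle, 10.1, 12.1 and 15.0 CPM in Th17n DFMO, 1.02, 1.5 and 1.62 CPM in iTreg vehicle and 2.35, 1.42 and 1.17 CPM in iTreg DFMO. These peaks (chr19:26653846-26654176 and chr19:26763222-26763472) were higher in every Th17n library than in any iTreg library of the same treatment. At +48.9 kb the lineage difference was 3.44 ± 0.53 (SE, adjusted p = 7.93e-07) in vehicle and 1.91 ± 0.54 (SE, adjusted p = 0.00452) under DFMO. Thinned to the smallest library total, the call at +48.9 kb under DFMO was lost (1.53, adjusted p = 0.094). The differences at +158.2 kb were 2.70 ± 0.47 (SE, adjusted p = 7.42e-06) and 2.88 ± 0.51 (SE, adjusted p = 1.36e-05). In iTreg vehicle these peaks held 1 to 8 counts per library.

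At the Smarca2 +142.9 kb peak, accessibility was 14.7, 20.9 and 18.2 CPM in Th17n vehicle, 33.8, 26 and 26.7 CPM in Th17n DFMO, 46.5, 44.1 and 42.2 CPM in iTreg vehicle and 37.0, 44.1 and 42.5 CPM in iTreg DFMO. This peak (chr19:26747659-26748439) went the other way: every iTreg library lay above every Th17n library. The lineage difference was -1.29 ± 0.20 (SE, adjusted p = 1.01e-06) in vehicle and -0.57 ± 0.20 (SE, adjusted p = 0.0241) under DFMO. In Th17n the 3 DFMO libraries lay above the 3 vehicle libraries, and the difference was 0.65 ± 0.22 (SE, adjusted p = 0.0478). That call was lost in 7 of 9 settings. Among them were the animal as a block (adjusted p = 0.056), DESeq2 (adjusted p = 0.066) and factors from start peaks (0.57, adjusted p = 0.089). It was also lost without any 1 of the 6 Th17n libraries, iTreg vehicle animal 2 or 3, or iTreg DFMO animal 1 or 3, with adjusted p of 0.055 to 0.35. The lineage call at Smarca2 +142.9 kb under DFMO was lost without any 1 of Th17n DFMO animal 2 (0.098), iTreg DFMO animal 2 (0.061) or iTreg DFMO animal 3 (0.06), with the adjusted p in brackets. With factors from start peaks it was lost too (-0.29, adjusted p = 0.3).

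At the Smarca2 +41.1 kb peak, accessibility was 25.5, 15.4 and 14.1 CPM in Th17n vehicle, 14.6, 18.2 and 17.6 CPM in Th17n DFMO, 16.4, 11 and 9.50 CPM in iTreg vehicle and 32.3, 11.4 and 25.8 CPM in iTreg DFMO. At this peak (chr19:26646081-26646526) iTreg DFMO animals 1 and 3 were high and animal 2 lay within the vehicle range. The DFMO difference in iTreg was 0.99 ± 0.30 (SE, adjusted p = 0.0328) and that in Th17n -0.01 ± 0.32 (SE, adjusted p = 0.995). The Smarca2 +41.1 kb call was lost without any 1 of iTreg vehicle animal 2 (0.13), iTreg vehicle animal 3 (0.18), iTreg DFMO animal 1 (0.18) or iTreg DFMO animal 3 (0.17), with the adjusted p in brackets.

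Arid1a, a DNA-binding subunit of BAF, had a pair of start peaks that were both lower in Th17n in vehicle, and 2 distal peaks that fell with DFMO, 1 in each lineage. Accessibility at the stronger start peak (chr4:133752797-133754736) was 81.3, 85.9 and 77.8 CPM in Th17n vehicle, 110.5, 86.5 and 99.0 CPM in Th17n DFMO, 108, 115 and 124 CPM in iTreg vehicle and 136, 114 and 116 CPM in iTreg DFMO. At the Arid1a -0.4 kb peak, accessibility was 79.3, 77.3 and 84.9 CPM in Th17n vehicle, 102, 113 and 101 CPM in Th17n DFMO, 99.7, 106 and 95.8 CPM in iTreg vehicle and 123, 106 and 116 CPM in iTreg DFMO. The second peak (chr4:133756716-133757709) covers the upstream listed start, and per kilobase it was the more accessible of the pair, at 101 against 53.8 CPM per kb. At both, Th17n vehicle lay below every library of the other groups. The lineage difference in vehicle was -0.57 ± 0.13 (SE, adjusted p = 0.00022) at the stronger peak and -0.39 ± 0.12 (SE, adjusted p = 0.00804) at -0.4 kb. The call at -0.4 kb was lost without Th17n vehicle animal 2 (adjusted p = 0.081) or iTreg vehicle animal 2 (adjusted p = 0.052), and with factors from start peaks both calls were lost (adjusted p = 0.12 and 0.75). Under DFMO the stronger peak differed by -0.36 ± 0.13 (SE, adjusted p = 0.0244), a call lost without Th17n DFMO animal 2 (adjusted p = 0.15) or iTreg DFMO animal 1 (adjusted p = 0.061) and with factors from start peaks (-0.07, adjusted p = 0.71).

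With DFMO in Th17n, the -0.4 kb peak of Arid1a rose by 0.41 ± 0.13 (SE, adjusted p = 0.0296) and the stronger start peak differed by 0.30 ± 0.13 (SE, adjusted p = 0.151). The Arid1a -0.4 kb call was lost without any 1 of Th17n vehicle animal 1 (0.13), Th17n vehicle animal 2 (0.19), Th17n vehicle animal 3 (0.12), Th17n DFMO animal 1 (0.13), Th17n DFMO animal 2 (0.22), Th17n DFMO animal 3 (0.084), iTreg DFMO animal 1 (0.06) or iTreg DFMO animal 3 (0.067), with the adjusted p in brackets. With factors from start peaks this rise did not pass (0.33, adjusted p = 0.084).

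At the Arid1a +46.8 kb peak, accessibility was 39.2, 40.8 and 54.0 CPM in Th17n vehicle, 28.9, 27.7 and 25.4 CPM in Th17n DFMO, 27.1, 27.5 and 30.7 CPM in iTreg vehicle and 32.3, 26.1 and 27.6 CPM in iTreg DFMO. Th17n vehicle stood above the other 3 groups, which overlapped each other, at this peak inside the gene (chr4:133706784-133707658). It fell with DFMO in Th17n (-0.69 ± 0.20 SE, adjusted p = 0.0246) and was at 0.01 ± 0.21 (SE, adjusted p = 0.98) in iTreg. In vehicle Th17n exceeded iTreg by 0.59 ± 0.20 (SE, adjusted p = 0.0116). The fall at Arid1a +46.8 kb was lost without any 1 of Th17n vehicle animal 3 (0.18), Th17n DFMO animal 1 (0.051), Th17n DFMO animal 2 (0.052) or Th17n DFMO animal 3 (0.066), with the adjusted p in brackets. The lineage call was lost without Th17n vehicle animal 3 (adjusted p = 0.11).

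At the Arid1a +65.4 kb peak, accessibility was 14.7, 10.8 and 13.8 CPM in Th17n vehicle, 15.9, 14.3 and 19.5 CPM in Th17n DFMO, 15.3, 16.6 and 21.0 CPM in iTreg vehicle and 7.04, 7.12 and 12.3 CPM in iTreg DFMO. Here (chr4:133688389-133688778) it was the iTreg DFMO libraries that stood apart, below iTreg vehicle and below Th17n DFMO. The fall in iTreg was -0.93 ± 0.31 (SE, adjusted p = 0.0463), and the Th17n difference was 0.40 ± 0.31 (SE, adjusted p = 0.469). The call was lost without Th17n vehicle animal 2 or 3, without any 1 Th17n DFMO library, without iTreg vehicle animal 2 or 3 or without iTreg DFMO animal 1 or 2, with adjusted p of 0.051 to 0.22. DESeq2 gave it an adjusted p of 0.056.

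Arid1b, the alternative to Arid1a in BAF, held 28 peaks over a gene model of 353360 bp, among them 2 with large lineage differences. At the Arid1b +260.7 kb peak, accessibility was 73.5, 55.3 and 66.7 CPM in Th17n vehicle, 65.6, 62.3 and 49.5 CPM in Th17n DFMO, 3.58, 3.22 and 2.43 CPM in iTreg vehicle and 3.52, 3.80 and 3.52 CPM in iTreg DFMO. Every Th17n library lay far above every iTreg library at this peak (chr17:5255460-5256130, 670 bp). Th17n exceeded iTreg by 4.34 ± 0.26 (SE, adjusted p = 5.23e-18) in vehicle and 3.97 ± 0.28 (SE, adjusted p = 1.98e-15) under DFMO. These were the smallest adjusted p-values among the 81 peaks in each treatment. With DFMO the peak was at -0.07 ± 0.19 (SE, adjusted p = 0.866) in Th17n and 0.30 ± 0.40 (SE, adjusted p = 0.714) in iTreg.

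At the Arid1b +332.6 kb peak, accessibility was 25.5, 17.6 and 24.7 CPM in Th17n vehicle, 6.5, 12.1 and 13.0 CPM in Th17n DFMO, 1.02, 1.29 and 1.82 CPM in iTreg vehicle and 1.17, 0.474 and 2.35 CPM in iTreg DFMO. The lineages were apart in both treatments at this peak (chr17:5327510-5327921), by 3.81 ± 0.43 (SE, adjusted p = 6.04e-10) in vehicle and 2.68 ± 0.50 (SE, adjusted p = 3.55e-05) under DFMO. It fell with DFMO in Th17n, with a difference of -1.08 ± 0.35 (SE, adjusted p = 0.0452) and no overlap of the libraries. The fall was lost with the animal as a block (adjusted p = 0.055) and by DESeq2 (adjusted p = 0.059). The fall at Arid1b +332.6 kb was lost without any 1 of Th17n vehicle animal 1 (0.082), Th17n vehicle animal 2 (0.068), Th17n vehicle animal 3 (0.18), Th17n DFMO animal 1 (0.24), Th17n DFMO animal 2 (0.061) or Th17n DFMO animal 3 (0.053), with the adjusted p in brackets.

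At the Arid1b +349.6 kb peak, accessibility was 2.94, 1.85 and 3.23 CPM in Th17n vehicle, 6.5, 7.79 and 9.12 CPM in Th17n DFMO, 7.16, 9.03 and 5.46 CPM in iTreg vehicle and 8.80, 7.12 and 8.79 CPM in iTreg DFMO. Near the 3′ end of the gene (chr17:5344548-5344880), Th17n vehicle lay below all the other libraries, with 3, 12 and 11 counts. The peak rose with DFMO in Th17n by 1.63 ± 0.46 (SE, adjusted p = 0.0195) and was at 0.21 ± 0.39 (SE, adjusted p = 0.802) in iTreg. The lineage difference in vehicle was -1.58 ± 0.45 (SE, adjusted p = 0.00321), a call lost without Th17n vehicle animal 2 (adjusted p = 0.066). The rise at Arid1b +349.6 kb was lost without any 1 of Th17n vehicle animal 2 (0.18), Th17n vehicle animal 3 (0.05), Th17n DFMO animal 2 (0.061) or Th17n DFMO animal 3 (0.074), with the adjusted p in brackets.

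At the Arid1b start peak (chr17:4995377-4996736), accessibility was 35.3, 46.0 and 43.2 CPM in Th17n vehicle, 44.8, 35.9 and 33.9 CPM in Th17n DFMO, 60.9, 45.1 and 48.1 CPM in iTreg vehicle and 52.2, 50.8 and 53.3 CPM in iTreg DFMO. The lineages overlapped in vehicle and were apart under DFMO, by -0.49 ± 0.18 (SE, adjusted p = 0.0262). The Arid1b start call was lost without any 1 of Th17n DFMO animal 2 (0.094), Th17n DFMO animal 3 (0.066) or iTreg DFMO animal 3 (0.064), with the adjusted p in brackets. It was also lost with library totals as the scaling and with factors from start peaks (-0.21, adjusted p = 0.4). In total 10 of the 27 tested Arid1b peaks were higher in Th17n in vehicle and 6 were lower, and under DFMO 9 were higher and 4 lower. Of all tested peaks, 25.2% were called higher in Th17n in vehicle and 19.3% lower, and under DFMO 22.5% higher and 14.7% lower. Away from starts the shares in vehicle were 31.7% higher and 15.1% lower. The Arid1b peaks called in vehicle between +137.7 and +260.7 kb, limits chosen after the values were seen, were all higher in Th17n. Taken as examples after their values were seen, those at +68.7, +170.6 and +243.7 kb were higher in Th17n in vehicle (log2 1.13, 0.73 and 1.13), while those at +12.2, +131.2 and +300.8 kb were lower (-0.65, -2.01 and -0.72), and each of these was called with the same sign under DFMO. The strong peak at +195.1 kb, with group means of 58.8 to 65.5 CPM, passed in no comparison. Summed over 28 peaks, Arid1b had 509.8 ± 21.4 CPM in Th17n vehicle and 393.8 ± 17.5 in iTreg vehicle, of which the 2 peaks within 1 kb of the start made up 11.4% and 18.7%.

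**Figure D4:**
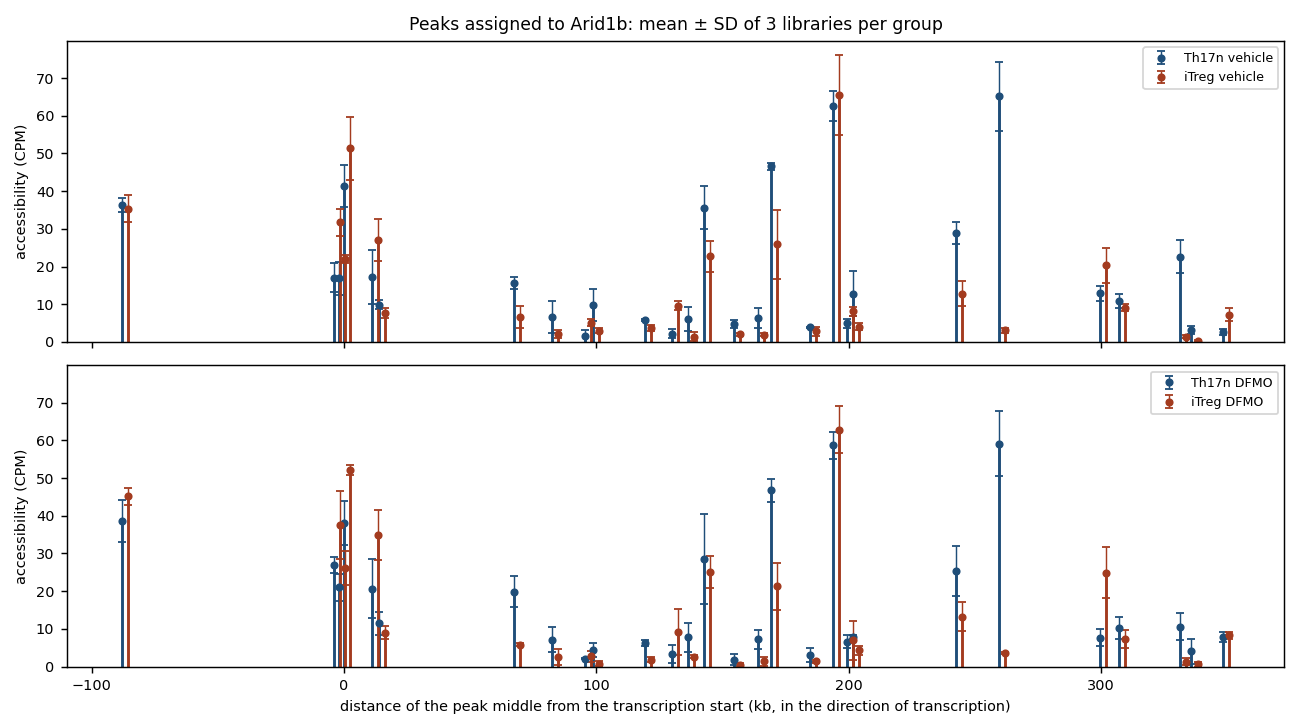
Accessibility (CPM, mean ± SD of 3 libraries per group) of the 28 peaks assigned to Arid1b against distance of the peak middle from the start in kb, in vehicle (top) and under DFMO (bottom). Th17n is blue and iTreg red, drawn slightly to the left and right of the true position so that both can be seen. The peak at +260.7 kb stands at 65.1 CPM in Th17n vehicle and 3.08 CPM in iTreg vehicle, while the peak at +195.1 kb is of like height in both lineages.

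Ep300, which encodes p300, had a start peak that was lower in Th17n under DFMO and an upstream peak at which DFMO went in opposite directions in the lineages. Start peak accessibility (chr15:81585002-81586475) was 80.3, 86.0 and 75.2 CPM in Th17n vehicle, 87.1, 90.0 and 86.0 CPM in Th17n DFMO, 88.5, 91.8 and 96.8 CPM in iTreg vehicle and 109, 110.1 and 113 CPM in iTreg DFMO. The lineages were apart in both treatments, by -0.27 ± 0.12 (SE, adjusted p = 0.0771) in vehicle and -0.40 ± 0.13 (SE, adjusted p = 0.01) under DFMO. With factors from start peaks the call under DFMO was lost (-0.12, adjusted p = 0.51). In iTreg the DFMO libraries lay above the vehicle libraries without a call (0.28 ± 0.12 SE, adjusted p = 0.152).

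At the Ep300 -24.0 kb peak, accessibility was 10.8, 6.77 and 6.75 CPM in Th17n vehicle, 3.57, 4.76 and 3.26 CPM in Th17n DFMO, 4.09, 2.15 and 3.23 CPM in iTreg vehicle and 8.80, 7.59 and 7.91 CPM in iTreg DFMO. At this peak (chr15:81562044-81562328, 284 bp) the DFMO libraries lay below the vehicle libraries in Th17n and above them in iTreg, with counts of 5 to 44 per library. The DFMO difference was -0.93 ± 0.46 (SE, adjusted p = 0.21) in Th17n and 1.43 ± 0.45 (SE, adjusted p = 0.0356) in iTreg. The interaction, the Th17n effect minus the iTreg effect, was -2.36 ± 0.64 (SE, adjusted p = 0.0466). It was the only 1 of the 81 peaks to pass that test (1.23%), where 1.31% of all tested peaks did, 0.835% higher and 0.478% lower. The interaction call was lost without 10 of the 12 libraries in turn, all except iTreg vehicle animal 1 and iTreg DFMO animal 2, with adjusted p of 0.06 to 0.13. The iTreg call at Ep300 -24.0 kb was lost without any 1 of iTreg vehicle animal 2 (0.18), iTreg vehicle animal 3 (0.11), iTreg DFMO animal 1 (0.079) or iTreg DFMO animal 3 (0.11), with the adjusted p in brackets. In vehicle Th17n exceeded iTreg at this peak (1.25 ± 0.44 SE, adjusted p = 0.0192), a call lost without iTreg vehicle animal 2 (adjusted p = 0.11).

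No peak of the 10 genes passed the interaction in the positive direction in the main edgeR fit or by DESeq2. In the main fit, 15 of the 81 had an unadjusted p under 0.05 in either direction, beside 13.9% of all peaks. With the animal as a block, Ezh2 -26.2 kb also passed (0.82, adjusted p = 0.049). Leaving out iTreg DFMO animal 2 brought the peaks past the threshold to 5: Ep300 -24.0 kb and Ezh2 -15.9 kb with negative values, and Ezh2 -26.2 kb (1.10, adjusted p = 0.0023), Eed -58.6 kb (1.6, adjusted p = 0.037) and Smarca4 +63.8 kb (2.26, adjusted p = 0.0084) with positive ones. Without iTreg vehicle animal 1, Eed -58.6 kb passed beside Ep300 -24.0 kb, and without Th17n DFMO animal 3, Ezh2 -15.9 kb passed in place of it.

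At the Ep300 -46.3 kb peak, accessibility was 13.7, 8.93 and 9.10 CPM in Th17n vehicle, 9.10, 14.7 and 15.0 CPM in Th17n DFMO, 21.0, 21.9 and 19.4 CPM in iTreg vehicle and 13.5, 20.4 and 21.4 CPM in iTreg DFMO. Further upstream (chr15:81539628-81540133), Th17n vehicle lay below iTreg vehicle, by -1.14 ± 0.29 (SE, adjusted p = 0.00126), and under DFMO the lineages overlapped (-0.64 ± 0.30 SE, adjusted p = 0.0899). Thinned to the smallest library total, the call in vehicle was lost (-0.73, adjusted p = 0.13).

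Crebbp, which encodes CBP, had 2 peaks. Accessibility of its start peak (chr16:4213034-4214524) was 52.9, 51.9 and 44.0 CPM in Th17n vehicle, 51.7, 39.4 and 71.6 CPM in Th17n DFMO, 53.2, 53.5 and 62.5 CPM in iTreg vehicle and 64.0, 57.9 and 54.2 CPM in iTreg DFMO. No comparison passed there, with a lineage difference of -0.27 ± 0.17 (SE, adjusted p = 0.189) in vehicle. At the Crebbp +11.4 kb peak, accessibility was 17.6, 14.6 and 19.4 CPM in Th17n vehicle, 26.3, 23.8 and 24.1 CPM in Th17n DFMO, 1.02, 1.5 and 1.82 CPM in iTreg vehicle and 4.70, 0.474 and 2.64 CPM in iTreg DFMO. This second peak (chr16:4201713-4202207), inside the gene, was higher in every Th17n library than in any iTreg library, by 3.36 ± 0.41 (SE, adjusted p = 4.89e-09) in vehicle and 3.22 ± 0.41 (SE, adjusted p = 1.9e-08) under DFMO. In Th17n the 3 DFMO libraries lay above the 3 vehicle libraries, without a call (0.57 ± 0.31 SE, adjusted p = 0.275). The start peak made up 74.2% of Crebbp accessibility in Th17n vehicle and 97.5% in iTreg vehicle.

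**Figure D5:**
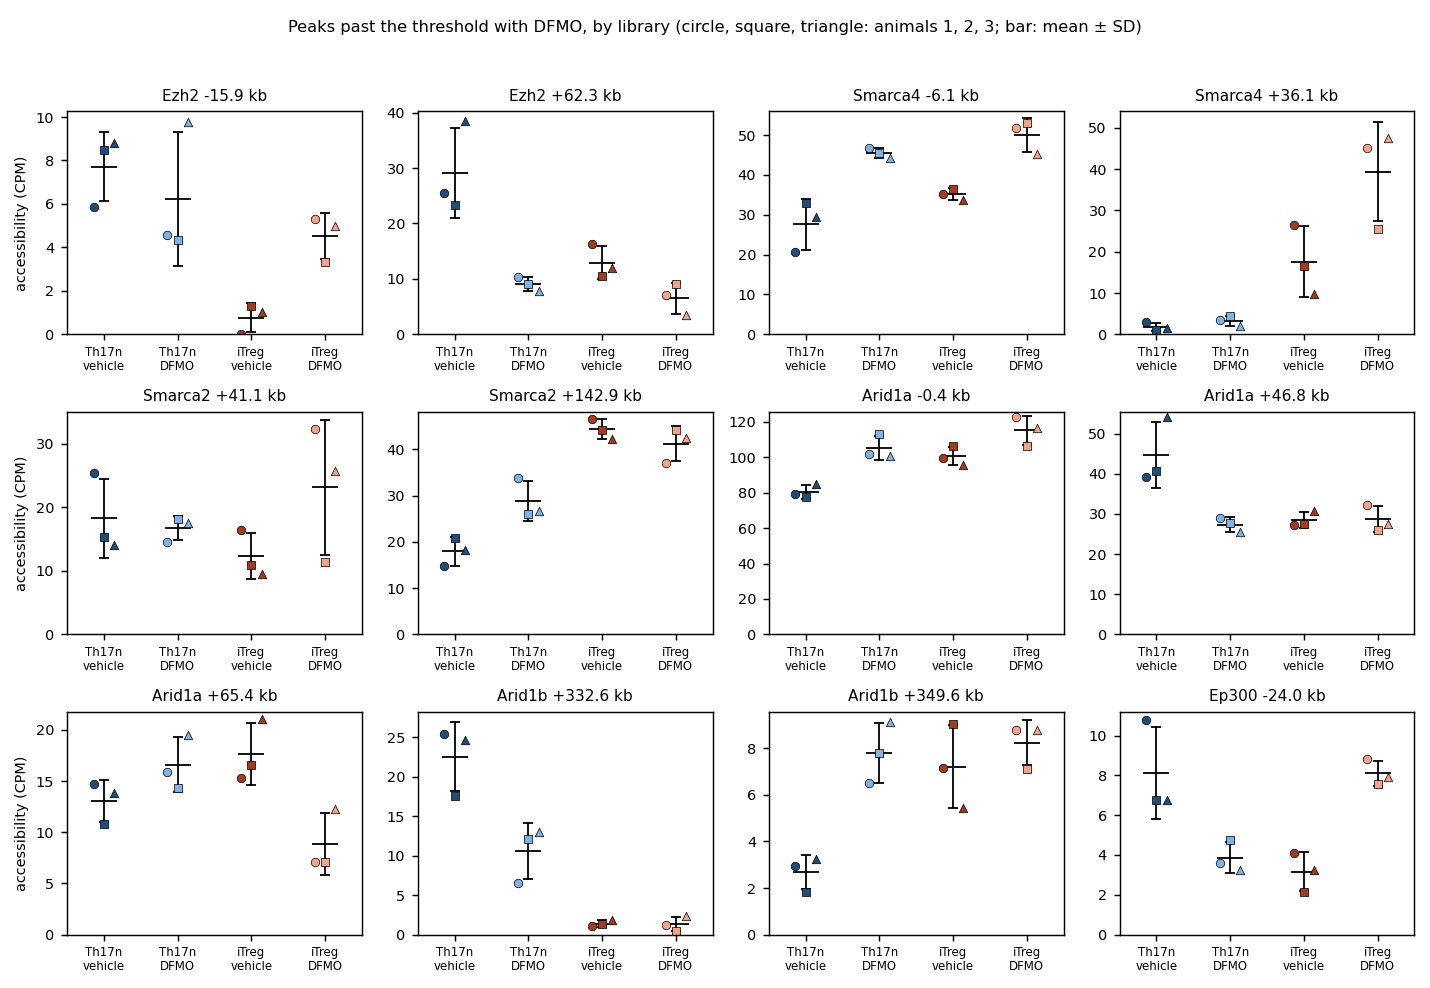
Accessibility (CPM, linear axes from 0, scaled per panel) of the 12 peaks called with DFMO in Th17n or iTreg other than the Suz12 start peak, by library. Circle, square and triangle are animals 1, 2 and 3, and bars are mean ± SD (n = 3). Ezh2 +62.3 kb falls from 29.1 to 9.10 CPM in Th17n, and Ep300 -24.0 kb goes down in Th17n and up in iTreg.

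The start peaks were also set beside the other 9575 tested start peaks by the Pearson correlation of log2(CPM + 1) over the 12 libraries. These correlations describe libraries that share lineage, treatment and depth. The closest was Cnpy3 for Ep300 (r = 0.964), Nfyc for Arid1b (0.96), Rxrb for Arid1a (0.955), Prpf8 for Suz12 (0.954) and Rnf43 for Smarca4 (0.946). It was Pdik1l for Eed (0.942), Aen for Smarca2 (0.927), Mfsd5 for Crebbp (0.905), Sde2 for Ezh2 (0.892) and Pls1 for Ezh1 (0.874). None of the 10 was closest to another of them, which among 9575 peaks does not show whether they vary together.

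Other genes of the same complexes were counted from lists. For 10 accessory subunits of PRC2, 43 peaks were tested: 2 rose and 1 fell with DFMO in Th17n, and 1 rose and 3 fell in iTreg. For 24 other SWI/SNF subunits, 70 peaks were tested: 4 passed in Th17n, all of them higher, and 2 rose and 5 fell in iTreg. For 15 acetyltransferases, p300 partners and acetyl-lysine readers, 76 peaks were tested: 2 rose and 2 fell in Th17n, and 1 rose and 6 fell in iTreg. PRC1 is the sister complex, and some of its forms bind the PRC2 mark. For 18 of its subunits, 60 peaks were tested: 2 rose and 3 fell in Th17n, and 6 passed in iTreg, all of them lower. The share called with DFMO was 5.26% to 8.33% over the 4 lists in Th17n, beside 8.78% of all peaks, and 9.21% to 10.0% in iTreg, beside 8.56%. In vehicle, the lineage comparison called 60.5%, 48.6%, 59.2% and 56.7% of the tested peaks of these lists in that order, beside 44.6% of all peaks.

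Some of these calls, chosen after their values were seen, lie close in role to the genes above. Whether they hold under the alternative settings or without single libraries was not examined. The start peaks of Rbbp4 and Rbbp7, which encode histone-binding subunits of PRC2, rose with DFMO in Th17n by 0.45 ± 0.13 (SE, adjusted p = 0.017) and 0.51 ± 0.15 (adjusted p = 0.026). Jarid2, a PRC2 cofactor, fell at a peak 9.9 kb before its start in Th17n with a log2 difference of -1.77 (adjusted p = 0.037). Smarce1, a BAF subunit, had a peak that rose with DFMO in Th17n by 1.95 ± 0.36 (adjusted p = 0.00033) and another that fell in iTreg, with a log2 difference of -0.68 (adjusted p = 0.021). At Ncoa2, a coactivator that recruits p300 and CBP, the same peak fell with DFMO in both lineages, with log2 differences of -0.93 in Th17n (adjusted p = 0.04) and -1.52 in iTreg (adjusted p = 0.00013). Pcgf5, a PRC1 subunit, had a peak 3.7 kb before its start that was called lower with DFMO in both lineages, at -0.68 in each (adjusted p = 0.0039 in Th17n and 0.0023 in iTreg).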

How the data were processed

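ATAC-seq libraries from 12 cultures, 4 groups of 3 animals, were analysed from 1 table of raw counts per peak, deposited by the authors. The submitters' processing notes name Trimmomatic, FastQC, Bowtie2, MACS2 and mm10, with no versions, and whether peaks were called per library or on pooled reads is not given in the sources used here. Any read shift for the transposase is likewise not given. Peaks were assigned with RefSeq gene models (GRCm38.p6), which carry no exons here. The 10 genes and the lists of other genes were chosen with earlier results of these data known. Some genes of the cell marker lists are not reported here. The quasi-likelihood test of edgeR 4.0.16 (R 4.3.3, limma 3.58.1) was fitted to all 12 libraries as 4 group means, after filterByExpr with a minimum count of 10 and TMM scaling. Its adjusted p covers all 43726 peaks tested, it was tested on simulated data, and DESeq2 1.42.0 was an alternative. CPM values use the library total without TMM factors. Tables and figures were made with Python 3.11.15, pandas 2.3.3 and matplotlib 3.10.9.

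Peaks given in full were the strongest start peak of each gene, every peak called with DFMO or in the interaction, and the peak with the smallest p of each gene in each lineage comparison. The labels give the same 3 animals in all groups, so libraries of 1 animal are paired. Over the 18 same-animal pairs the deviations from group means correlated at -0.0549 to 0.0747. Compared with libraries of the other groups, where the 3 animals were equally represented, 7 of 12 libraries correlated best with 1 of their own animal. Within a group, chi-square per degree of freedom was at least 2.076, so no 2 libraries agreed within sampling noise. Library totals of 1020937 to 6496550 set the precision, and a peak at 5 CPM rests on few reads in the smallest library. Alternatives were RLE and library-total scaling, no count filter, a minimum of 30, the animal as a block, DESeq2, thinning to the smallest library, fitting only the groups compared, a 10 kb distance limit, leaving out each library, and scaling factors from start peaks, which was added after seeing the data.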

Additional observations from a re-analysis of the deposited data

Results flagged for a closer look

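At Ep300 -24.0 kb, the peak upstream of the gene, the DFMO effect differed between the lineages by the interaction test (log2 -2.36, adjusted p = 0.047, edgeR): the 3 DFMO libraries lay below the 3 vehicle libraries in Th17n and above them in iTreg. The call was lost without any 1 of the 3 Th17n vehicle libraries, the 3 Th17n DFMO libraries, iTreg vehicle animal 2 or 3, or iTreg DFMO animal 1 or 3 (adjusted p 0.06 to 0.13). Over the settings that keep all libraries and could give a value it was 0.034 to 0.047.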

How the results depend on the processing

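The named results are the calls at the peaks given in full, and none of these changed sign under any alternative. Start peaks without a lineage call did: with factors from start peaks, 5 turned positive in vehicle and 6 under DFMO. After thinning, 3 turned positive in vehicle. Of the named results, 2 of 8 for DFMO in Th17n, 2 of 5 for DFMO in iTreg, 16 of 22 for lineage in vehicle, 9 of 15 for lineage under DFMO and the 1 interaction passed in every setting that keeps all libraries and could test them. Without each library in turn, 1, 0, 17, 9 and 0 of them did. Counts of the 81 peaks called higher and lower moved by over 1.5 times as follows. For DFMO in Th17n (5 higher, 3 lower), 3 were higher without a count filter and with factors from start peaks, 0 higher and 1 lower after thinning, and 9 higher and 6 lower with only the groups compared. Also for DFMO, in iTreg (4 higher, 1 lower), 2 were higher after thinning or within 10 kb and 1 with only the groups compared. There, 0 were lower with RLE factors, no filter, DESeq2, thinning or only the groups compared, and 2 with the library total or factors from start peaks. For lineage in vehicle (26 higher, 19 lower), a minimum count of 30 gave 15 and 11, thinning 16 and 6, and factors from start peaks 6 lower. Under DFMO (24 higher, 11 lower) these gave 15 and 7, 12 and 7, and 3 lower. For the interaction (0 higher, 1 lower), 0 were lower with a minimum of 30, thinning or a 10 kb limit. With the animal as a replicate block, 1 interaction was higher (Ezh2 -26.2 kb), and the falls or rises at Arid1b +332.6 kb and Smarca2 +142.9 kb with DFMO in Th17n were lost (adjusted p = 0.055 and 0.056). No other named call was lost with the block. Leaving out 1 library gave 0 to 7 higher and 1 to 4 lower for DFMO in Th17n, 0 to 5 and 0 to 6 for DFMO in iTreg, 21 to 28 and 11 to 19 for lineage in vehicle, 18 to 25 and 3 to 13 for lineage under DFMO, and 0 to 3 and 0 to 2 for the interaction. Thinning, a higher minimum and fitting fewer groups use fewer reads, peaks or libraries, and the cause of the other moves was not tested. Of all called peaks, the share called higher with DFMO moved with factors from start peaks from 51.2% to 36.9% in Th17n and from 44.8% to 37.5% in iTreg.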
